A study of Enchytraeus crypticus with 9 samples.

Results

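In cocoons of the potworm Enchytraeus crypticus, 132 of 16752 transcripts had a mean level that was lower at 5 mg Cd/kg than in control soil and lower again at 16 mg Cd/kg, by more than 0.5 on the log2 scale at each step. The 100 with the largest smaller step are described here. They were chosen by the measured values themselves: a probe's level was its processed signal on the log2 scale, set against the 75th percentile of its array, which has level 0. To be eligible, a probe had to be well above background on all 9 arrays and outside the 200 brightest in control, which 16752 of the 43750 probes were. The first step is the control mean minus the 5 mg mean, the second step is the 5 mg mean minus the 16 mg mean, and a positive step means a lower level at the higher dose.

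Enchytraeus crypticus is a small white oligochaete worm of the soil, and its embryos develop inside cocoons. The control cocoons were kept in LUFA 2.2 soil, a natural standard soil, with no added cadmium, and the other groups in the same soil with 5 or 16 mg Cd/kg, in each case for 1 day and with cocoons 1 to 2 days after laying. Each group had 3 arrays, each from RNA of a pool of 300 whole cocoons that the labels call a biological replicate. The RNA of every cell of the cocoon was measured together, so fewer cells of a type and less RNA per cell cannot be told apart.

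Cadmium is a toxic metal with no known role in most animals. It binds to thiol groups of proteins, can displace zinc and other metals from their sites, and raises oxidative stress. Cells meet it with metal-binding proteins such as metallothionein, with glutathione and with chaperones. In early animal embryos generally, maternal messages are cleared while the embryo's own genes switch on.

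Of the 43750 probes of the array, 23177 are named as contigs and 20573 carry the name of a single sequencing read. The files pair neither kind of name with a gene, so no member is given a gene, a role or a pathway, and the members are called by the names of their probes. Probe sequences and positions in a genome were not used here.

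Across the members, the first step ran between 0.53 and 2.60 on the log2 scale, with a median of 0.81. The second step ran between 0.53 and 1.72, with a median of 0.67. The whole difference, control minus 16 mg, ran between 1.08 and 4.07, with a median of 1.58. Over all eligible probes the medians were -0.21 for the first step, 0.03 for the second and -0.26 for the whole difference. These sizes describe the choice and were not tested. They moved with single arrays. Leaving out 5 mg array 1 made the median first step 1.29 and the median second step 0.29. Leaving out 5 mg array 3 made them 0.35 and 1.20, and without 16 mg array 2 the median second step was 0.38. The first step was the larger one in 63 members. It was above 1 in 35 members, the second step was above 1 in 11, and both were above 1 in 6. A first step above 0.5 was common among eligible probes (4975, or 29.7%), and a second step above 0.5 less so (2519, or 15.0%).

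**Figure D1:**
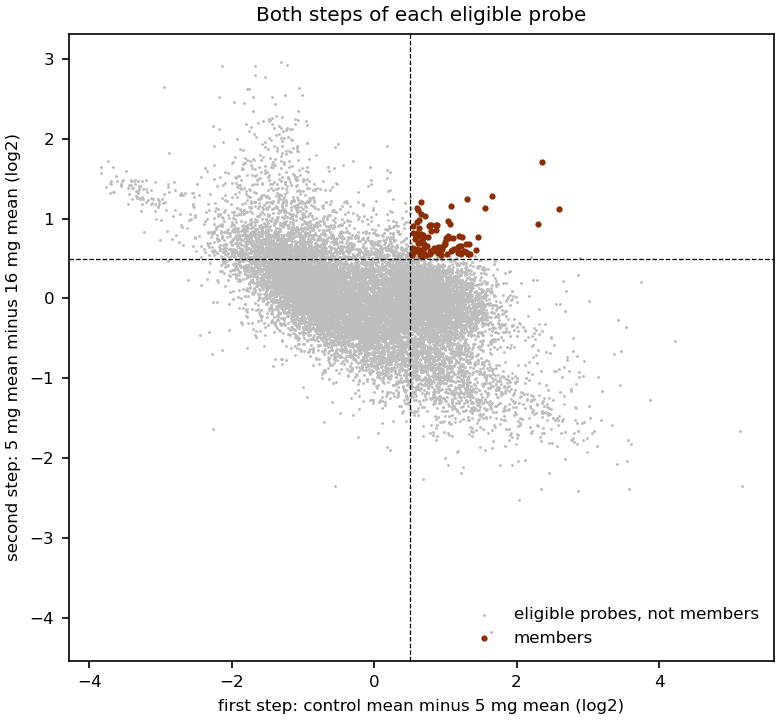
First step (control mean minus 5 mg mean, horizontal axis, log2) against second step (5 mg mean minus 16 mg mean, vertical axis, log2) for each eligible probe, with members in dark red and dashed lines at 0.5. The members fill the corner above both lines, with contig18202 at 2.35 and 1.72 and most of them close to the lines.

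The limit of 100 passed through a dense part of this range. The last member, GYUW2K401C6WU5, had steps of 0.68 and 0.53. The first probe left outside, contig13418, had steps of 0.53 and 0.63. Their smaller steps were 0.5327 and 0.5326, so they are alike by the rule. Lower down, contig11949 had a smaller step of 0.5003 and was among the 132, while contig24408, with 0.4990, was not.

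The members covered a wide span of brightness. A transcript that sank below background on any array could not be a member, and with detection asked only of the 3 control arrays the rule was met by 411 probes. The mean level of the members in control lay between -1.29 and 6.81, with a median of 0.54 against 0.66 over the eligible probes. Processed signals of members on single arrays ran between 5.68 and 10702, and no spot was saturated. The error that the scanner software gives for a spot had a median of 10.1% to 11.6% of the signal over the members of an array. Contigs made up 74 of the members and read-named probes 26, against a share of contigs of 51.4% over the eligible probes. The members were spread over the array, with 22, 25, 27 and 26 of them in 4 bands of rows, against 24.5%, 26.2%, 26.2% and 23.1% of the eligible probes.

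The widest 2-step pattern was that of contig18202. Its level was 4.43, 2.25 and 3.15 in control, 0.93, 1.36 and 0.48 at 5 mg, and -0.18, -2.12 and -0.07 at 16 mg. The 3 groups did not overlap. The group means were 3.27 ± 1.10 in control, 0.92 ± 0.44 at 5 mg and -0.79 ± 1.15 at 16 mg (SD, n = 3 each). Its level was thus 5.10-fold lower at 5 mg than in control, 3.29-fold lower at 16 mg than at 5 mg, and 16.8-fold lower at 16 mg than in control.

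GYUW2K402JYC9L had the next largest smaller step. Its level was 2.52, 0.47 and 0.80 in control, 0.19, -0.27 and -1.09 at 5 mg, and -1.75, -2.11 and -1.15 at 16 mg. Again no array of a group overlapped with another group, although the lowest 5 mg array lay close to the highest 16 mg array. Its steps were 1.65 and 1.28.

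The member with the largest first step was GYUW2K402FJOQV. Its level was 5.32, 2.99 and 3.96 in control, 1.57, 1.94 and 0.97 at 5 mg, and 0.88, -1.06 and 1.28 at 16 mg. All 5 mg arrays lay below all control arrays, while 5 mg array 3 lay below the highest 16 mg array. The level was 6.07-fold lower at 5 mg than in control and 13.2-fold lower at 16 mg than in control. In all of contig18202, GYUW2K402JYC9L and GYUW2K402FJOQV, control array 1 was the brightest and control array 2 the dimmest.

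The brightest members in control were contig23173 and contig02350. The level of contig23173 was 7.10, 6.53 and 6.81 in control, 6.42, 6.23 and 4.84 at 5 mg, and 5.70, 4.34 and 5.45 at 16 mg. Every cadmium array lay below every control array, and 5 mg array 3 lay below 16 mg arrays 1 and 3. For contig02350 the level was 6.18, 5.24 and 5.49 in control, 4.60, 4.63 and 2.99 at 5 mg, and 3.92, 2.80 and 2.10 at 16 mg. It too was lower on every cadmium array than on any control array, with 5 mg array 3 below 16 mg array 1. The lowest of its values came from a spot that the scanner software had marked as irregular, and without that spot its second step was 0.72 in place of 1.14.

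The member with the least spread within groups was contig05644. Its level was -0.52, -0.68 and -0.81 in control, -1.48, -1.37 and -2.26 at 5 mg, and -2.36, -2.93 and -2.19 at 16 mg. The 5 mg arrays lay below all control arrays, and 5 mg array 3 fell inside the range of the 16 mg arrays. Its mean was -0.67 ± 0.14 in control, -1.71 ± 0.49 at 5 mg and -2.50 ± 0.39 at 16 mg (SD, n = 3 each).

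The member with the most spread was contig24581, whose level was 2.52, 3.51 and 3.68 in control, 4.86, -1.16 and 4.40 at 5 mg, and 1.87, 1.58 and 2.98 at 16 mg. At 5 mg, arrays 1 and 3 lay above every control array and array 2 lay below every control and every 16 mg array. Its mean at 5 mg, 2.70 ± 3.35 (SD, n = 3), falls between the other means through that one array. The last member by the rule, GYUW2K401C6WU5, had -0.34, -0.53 and -1.17 in control, -0.89, -0.23 and -2.96 at 5 mg, and -1.46, -1.94 and -2.28 at 16 mg. Its 5 mg array 2 was brighter than every control array, and its 5 mg array 3 was dimmer than every 16 mg array.

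**Figure D2:**
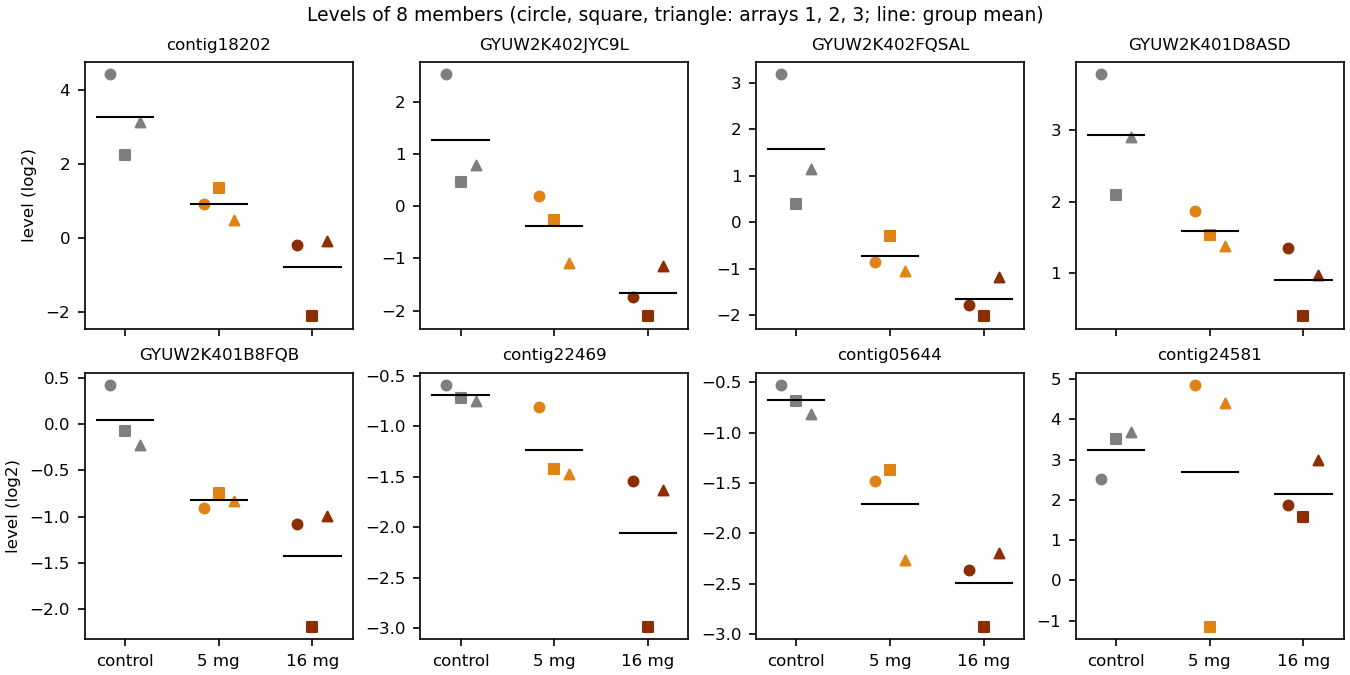
Level (log2, vertical axis) of 8 members on each array, by dose of cadmium (mg per kg of soil), with 1 point per array and a line at the group mean. In the first 6 panels the 3 groups do not overlap, while in contig05644 and contig24581 they do.

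All 3 groups lay in falling order without any overlap in 6 members, against 0.0537% of the eligible probes (9 of 16752). Besides contig18202 and GYUW2K402JYC9L these were GYUW2K402FQSAL, GYUW2K401D8ASD, GYUW2K401B8FQB and contig22469, which are named here after their values were seen. GYUW2K402FQSAL had 3.18, 0.40 and 1.15 in control, -0.86, -0.28 and -1.04 at 5 mg, and -1.77, -2.02 and -1.17 at 16 mg. GYUW2K401D8ASD had 3.78, 2.10 and 2.90 in control, 1.87, 1.53 and 1.38 at 5 mg, and 1.36, 0.40 and 0.97 at 16 mg. In both of them control array 1 was again the brightest and control array 2 the dimmest of the controls.

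GYUW2K401B8FQB had 0.42, -0.08 and -0.23 in control, -0.90, -0.74 and -0.83 at 5 mg, and -1.07, -2.19 and -0.99 at 16 mg. Its 5 mg arrays had the least spread of any member, with an SD of 0.08. The level of contig22469 was -0.59, -0.72 and -0.75 in control, -0.81, -1.42 and -1.47 at 5 mg, and -1.54, -2.99 and -1.63 at 16 mg. Its highest 5 mg array was just below its lowest control array. The mean steps of these 6 members were therefore also the order of their single arrays.

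In the other members single arrays crossed between groups. All 5 mg arrays lay below all control arrays in 27 members (15% of the eligible probes). All 16 mg arrays lay below all control arrays in 95 members (24.2% of the eligible probes). All 16 mg arrays lay below all 5 mg arrays in 6 members (5.68% of the eligible probes). The rule used the same differences, so nothing is read from these shares. The 27 members became 71 with levels set against the spike-in controls (28.4% of the eligible probes) and 75 without 5 mg array 1 (27.1%). The 6 ordered members became 24 without 5 mg array 3, where 254 of the eligible probes were so ordered (1.52%). The mean pattern of 2 steps was thus rarely the pattern of single arrays, and "lower at 5 mg and lower again at 16 mg" holds for the group means.

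The 5 mg arrays differed widely from each other over the members. Measured from each probe's control mean, the median member stood at -0.09 on 5 mg array 1, -0.79 on array 2 and -1.95 on array 3. The 16 mg arrays gave medians of -1.27, -2.26 and -1.19, against 0.09, -0.15 and 0.04 for the controls. Array 3 of the 5 mg group was thus lower for the median member than 16 mg arrays 1 and 3, and 5 mg array 1 was level with the control arrays. Over the eligible probes the medians were 0.36, 0.22 and 0.27 at 5 mg and 0.26, 0.32 and 0.14 at 16 mg, so the median of the eligible probes did not follow the members' order among the 5 mg arrays.

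**Figure D3:**
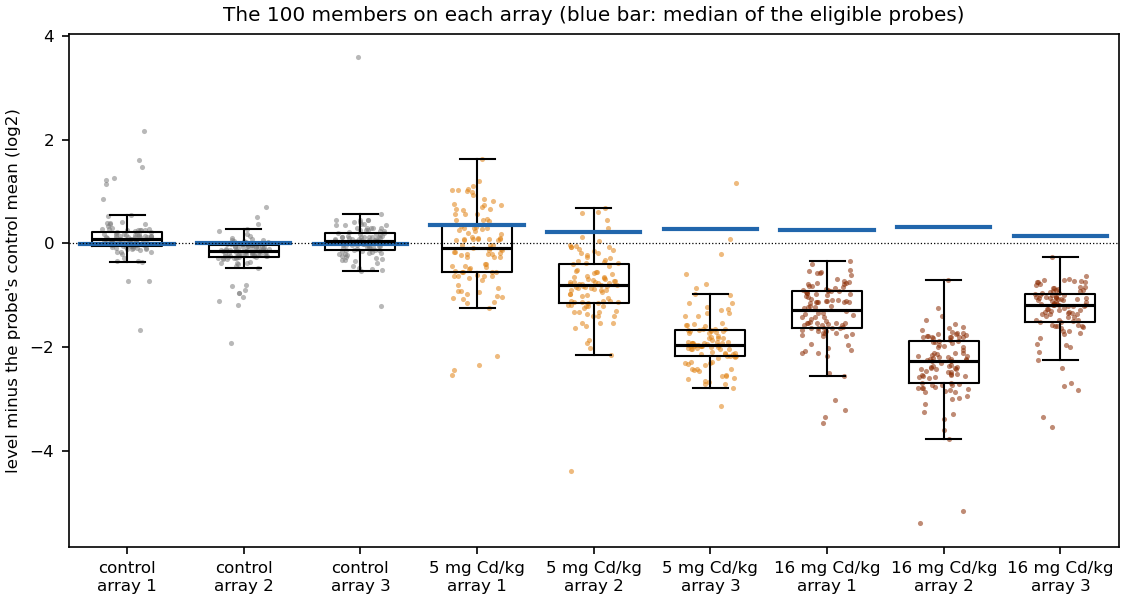
Level of each of the 100 members minus its own control mean (log2, vertical axis) on each of the 9 arrays, with a box for the quartiles, a line for the median, whiskers to 1.5 box lengths and a blue bar for the median of the eligible probes. The median member stands at -0.09, -0.79 and -1.95 at 5 mg and at -1.27, -2.26 and -1.19 at 16 mg.

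Counts by member gave the same picture. On 5 mg arrays 1, 2 and 3, the level was below the lowest control array in 41, 78 and 96 members, against 33.6%, 35.5% and 39.5% of the eligible probes. On 16 mg arrays 1, 2 and 3 it was below the lowest control array in 97, 99 and 97 members, against 32.8%, 36.8% and 34.2%. Array 1 was the highest of the 5 mg group in 72 members (55.5% of the eligible probes), and array 3 was the lowest in 92 (35.5%). All 3 stood in the order 1, 2, 3 from high to low in 67 members, against 24.1% of the eligible probes. The numbers are names of samples and carry no dose or time. The rule used the means of these same arrays, so all of these counts are in part fixed by the choice. Nothing is read from them beside the shares of the eligible probes.

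Array 1 of the 5 mg group was above the control mean in 46 members, against 60.9% of the eligible probes. Array 3 was below the 16 mg mean in 71 members (55.7%), and below the highest 16 mg array in 90 (78.0%). Array 2 lay below the control mean and above the 16 mg mean in 89 members, against 13.6% of the eligible probes. Only this falling order was counted, and the median whole difference of the eligible probes was -0.26, a higher level at 16 mg. The members' means were chosen to fall, so nothing is read from these counts beside the shares. In 68 members the range of the 5 mg arrays was larger than the whole difference, control minus 16 mg. The share over the eligible probes, 93.5%, takes in every probe that was higher at 16 mg than in control, where this difference is negative. The whole differences of the eligible probes were also not chosen to be large, so nothing is read from that share. The median range was 1.95 over the members and 1.20 over the eligible probes.

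Within-group spread was unequal at the 3 doses. The median SD of a member was 0.24 in control, 0.99 at 5 mg and 0.67 at 16 mg, against 0.18, 0.63 and 0.35 over the eligible probes. At 16 mg, array 2 was the lowest of its group in 92 members (33.8% of the eligible probes). In control, array 2 was the lowest in 62 members (30.1%). The rule used the means of these same arrays, and a single array can move a mean. Nothing is thus read from the members' SDs and counts beside those of the eligible probes.

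**Figure D4:**
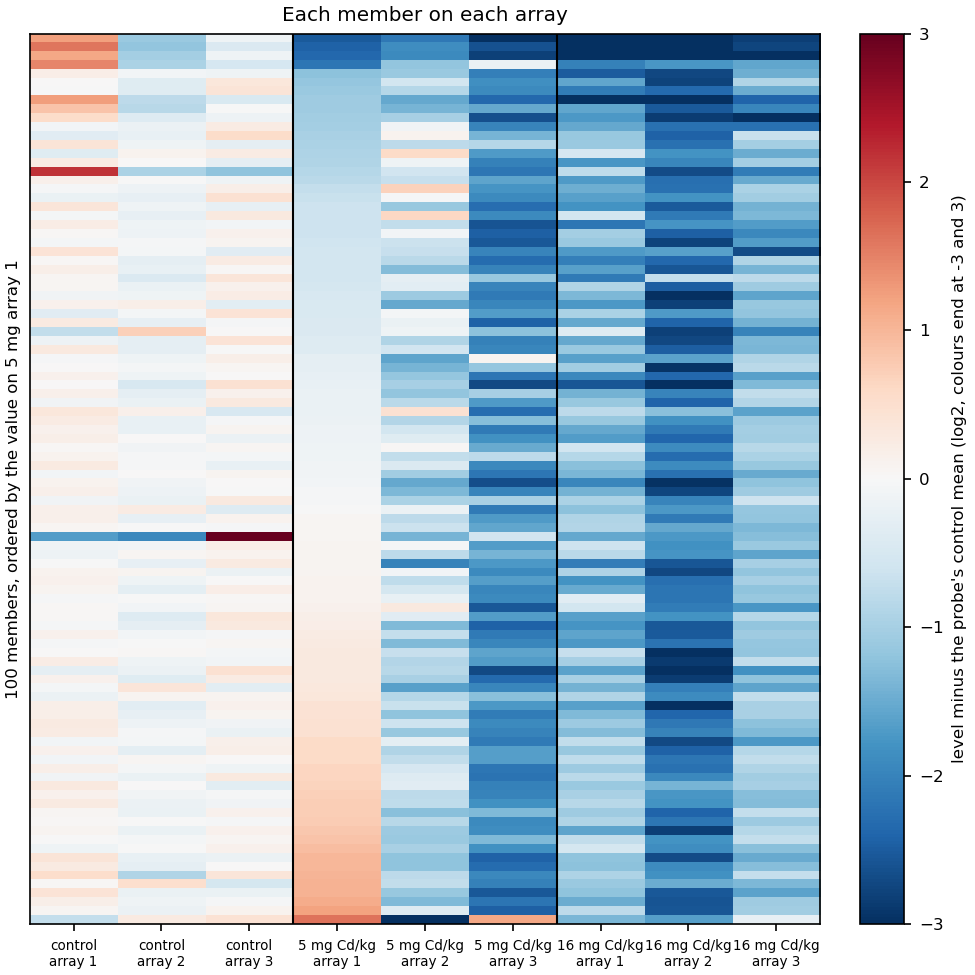
Level of each member minus its own control mean (log2, colour, which ends at -3 and 3) on the 9 arrays, with members ordered by their value on 5 mg array 1. On that array 46 members lie above their control mean, while 5 mg array 3 and the 16 mg arrays are blue for nearly all members.

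The members could be divided by what they did on the 5 mg arrays, a division made after their values were seen and given without a test. In 27 members every 5 mg array was below every control array. The median of these stood at -0.61, -1.01 and -2.02 at 5 mg, arrays 1 to 3, and at -1.69, -2.53 and -1.48 at 16 mg. Their control level ran between -0.69 and 6.81, with a median of 1.14 against 0.54 over all members. They had a median first step of 1.24 and a median second step of 0.68. Of them 20 were contigs.

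In 46 members 5 mg array 1 was above the control mean. Their median was 0.45, -0.79 and -1.92 at 5 mg, and -1.09, -2.18 and -1.15 at 16 mg. In 39 of these, 5 mg array 3 was below the 16 mg mean. At the median of these members, the mean at 5 mg was thus made of 1 array above the controls and 1 array lower than 16 mg arrays 1 and 3. The 27 others stood at -0.43, -0.19 and -1.90 at 5 mg and at -1.41, -1.99 and -1.14 at 16 mg.

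Among the controls, 12 members had an SD above 0.5, against 3.18% of the eligible probes. They included contig18202, GYUW2K402JYC9L, GYUW2K402FJOQV, GYUW2K402FQSAL and GYUW2K401D8ASD. Control array 1 was the highest in 8 of the 12, and control array 2 the lowest in 8. Members with some of the largest steps were thus among those whose control arrays differed the most. The control means entered the rule, so nothing is read from the share of 3.18%.

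In contig24568 and contig01115 a single control spot that the scanner software had marked as irregular made the first step. The level of contig24568 was -2.06, -2.31 and 3.21 in control, -0.33, -1.78 and -0.97 at 5 mg, and -1.93, -2.12 and -1.67 at 16 mg, with the third control spot the marked one. Without that spot its first step was -1.16 in place of 0.64, so the level at 5 mg was above control. For contig01115 the level was 4.58, 1.45 and 1.19 in control, 1.56, 1.84 and 0.25 at 5 mg, and 1.64, -0.28 and 0.31 at 16 mg. Its first step without the marked spot on control array 1 was 0.11 in place of 1.19. With all marked spots left out of the means, 130 probes met the rule, and 98 of the 100 members kept both steps above 0.5.

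Some members ran nearly in parallel. After the levels of a probe were centred on its own mean, 9 of the 4950 pairs of members lay within 0.25 of each other on every array. The closest pair, GYUW2K401BGXOB and GYUW2K401EWUXG, differed by at most 0.13 after centring and by at most 0.19 in level. GYUW2K401BGXOB had 1.78, 1.16 and 1.21 in control, 2.38, 0.17 and -1.04 at 5 mg, and 0.17, -1.30 and -0.12 at 16 mg. GYUW2K401EWUXG had 1.72, 1.10 and 1.11 in control, 2.36, 0.19 and -1.24 at 5 mg, and 0.11, -1.24 and -0.30 at 16 mg. In both, 5 mg array 1 was the brightest of all 9 arrays. Whether such probes read the same transcript was not tested, so the members may stand for fewer than 100 transcripts.

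The file headers gave 3 slide barcodes and 5 different scan times. Arrays with the same scan time are said here to share a scan session. Slide 1 held 5 mg array 2, 16 mg array 1 and control arrays 1 and 3. Slide 2 held 5 mg array 3, 16 mg arrays 2 and 3 and control array 2. Slide 3 held only 5 mg array 1, which also had a scan session to itself and the lowest 75th percentile of signal, 38.3, against 48.9 to 87.3 on the other arrays. Its part in the members' pattern and that of its slide cannot be told apart. Control arrays 1 and 2 each had a scan session to themselves too. On slide 2 the control array was thus scanned apart from every cadmium array. The first step and the whole difference on that slide cannot be told apart from scan session.

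Within slide 1, with 2 control arrays and 1 array at each dose, the median first step of the members was 0.84 and the median second step 0.46, and both steps were above 0 in 88 members (12.4% of the eligible probes). Within slide 2, with 1 control array, 1 array at 5 mg and 2 at 16 mg, the median first step was 1.79 and the median second step -0.15, with both above 0 in 33 members (5.32% of the eligible probes). The whole difference between control and 16 mg had a median of 1.32 on slide 1 and 1.60 on slide 2. It was above 0 in 100 members on slide 1 and 99 on slide 2, against 6582 and 7054 of the 16752 eligible probes. The rule used the means of these same arrays, so the signs within a slide are in part fixed by the choice and nothing is read from them. The second step was above 0 in 94 members on slide 1 and 37 on slide 2. In scan session 1, which held 1 array of each group, the median steps were 0.81 and 0.46.

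**Figure D5:**
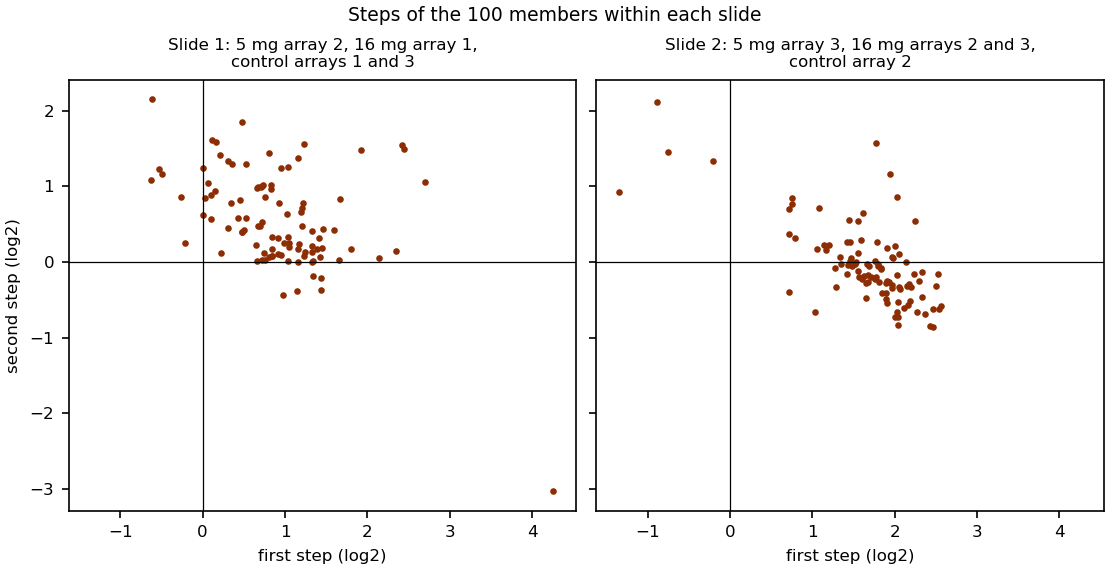
First step (horizontal axis, log2) against second step (vertical axis, log2) of each member computed within slide 1 (left) and within slide 2 (right), with lines at 0. On slide 1 88 members lie above 0 on both axes, while on slide 2 33 do and the median second step is -0.15.

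The rule was also applied with each array left out in turn, and the steps of the probes it then found were set with the left-out array alone standing for its group. Both steps were above 0 on the left-out control array in 95, 97 and 98 of 100 probes, for arrays 1 to 3. Over all probes eligible without that array the shares were 15.5%, 16.2% and 15.2%, and such shares stand in brackets below. For the 5 mg arrays both steps were above 0 in 32 of 56 probes on array 1 (14.4%). On array 2 they were in 57 of 100 (13.0%), and on array 3 in 16 of 100 (3.77%). On array 3 the median second step was -0.42. For the 16 mg arrays both steps were above 0 in 64 of 100, 39 of 43 and 47 of 100 probes (12.7%, 23.9% and 11.3%). On array 3 of that group the median second step was -0.03. The other groups' difference is fixed by the choice in each case. With a control array left out the second step was above 0 by the choice, and with a 16 mg array left out the first step was. Those counts thus turn on the other step. Over the eligible probes the first step was above 0 in 44.2%, 45.8% and 44.0% for left-out control arrays 1 to 3. For left-out 16 mg arrays 1 to 3 the second step was above 0 in 49.3%, 50.3% and 54.3%. In both cases that other step still uses the 5 mg mean that entered the rule, so it too is in part fixed by the choice. The shares over eligible probes have no such choice, so they are not a like background, and no test was run.

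The members' differences were also set against a test of every probe. limma was fitted to all 9 arrays in 3 groups over 25915 probes, those detected well above background throughout at least 1 of the groups, without the irregular spots, and p-values were adjusted over all of these. Since the rule used the same contrasts, the counts below describe the members and are not support for them. At 5 mg against control, 4 members were called lower at an adjusted p below 0.05, and 5.55% of all tested probes were. The 4 were GYUW2K402FJOQV, GYUW2K402FQSAL, contig18202 and contig07953, with limma log2 differences of -2.60 ± 0.69 (SE, adjusted p = 0.0381), -2.31 ± 0.62 (adjusted p = 0.0385), -2.35 ± 0.65 (adjusted p = 0.0411) and -1.46 ± 0.41 (adjusted p = 0.0417). At an unadjusted p below 0.05 there were 24 members, against 18.3% of all tested probes. When the 2 groups were fitted alone, limma called 0 members, 20 had an unadjusted p below 0.05 (15.5% of all tested probes), and 1.55% of all tested probes were called lower. Without 5 mg array 1 limma called 51 members and 21.9% of all tested probes lower. Without any 1 of the control arrays it called 0 members and 0 probes in all.

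Of these 4, contig07953 was named after its values were seen. Its level was 0.82, 0.54 and 0.49 in control, -0.62, -0.50 and -1.42 at 5 mg, and -1.87, -2.11 and -0.85 at 16 mg. Its 5 mg and 16 mg arrays overlapped with each other and not with the controls. In all 4, every 5 mg array was below every control array.

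At 16 mg against control, limma over all 9 arrays called 0 members lower, as it called 0% of all tested probes, and the smallest adjusted p of a member was 0.112. Without adjustment, 85 members had p below 0.05, against 14.4% of all tested probes. Fitted on those 2 groups alone, limma called 96 members lower, against 22.4% of all tested probes. For contig18202 the log2 difference was -4.07, with an SE of 0.65 and a limma adjusted p of 0.112 over 9 arrays, and an SE of 0.64 and an adjusted p of 0.0133 for 2 groups. The fit over 9 arrays takes in the spread at 5 mg, and the fit of 2 groups does not. For contig18202 that spread was the smallest of its 3 groups (SD 0.44, against 1.10 in control and 1.15 at 16 mg). Each adjusted p also depends on the other probes of its fit, and why the 2 fits differ was not tested. Without 5 mg array 1, limma over the other arrays called 73 members and 9.74% of all tested probes lower.

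At 16 mg against 5 mg, limma called 0 members lower over 9 arrays, against 0.104% of all tested probes, and 0 in the fit of 2 groups. Without adjustment 3 members had p below 0.05 over 9 arrays, against 3.73% of all tested probes, and 2 had when those groups were fitted alone, against 2.24%. Both counts are near the share over all probes. The largest second step, that of contig18202, was a log2 difference of -1.72 ± 0.65 (SE, limma adjusted p = 0.759). The second step, above 0.5 in every member by the rule, thus passed this test in none of them, and in none of them in the fit of 2 groups.

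The same rule turned round, for probes higher at 5 mg and higher again at 16 mg, was met by 139 probes, close to the 132 that were lower at each step. Among the first 100 of these, ranked the same way, 5 mg array 3 was the highest of its group in 72, against 13.6% of the eligible probes. All 3 groups were in rising order without overlap in 2. No share over the eligible probes was counted for that order, so it is not set against the falling one. In the members described here, 5 mg array 3 was the lowest of its group in 92, against 35.5% of the eligible probes. Both lists were chosen by the means of these arrays, so nothing is read from these shares.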

How the data were processed

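Expression was measured on 9 Agilent 1-colour arrays, 1 per pool of cocoons, labelled with Cy3, per the labels' protocols. Each deposited intensity was computed by Feature Extraction 10.7.3.1 (Agilent), as the file headers state, by subtracting background within an array. It is linear, and arrays were not scaled to each other. Flag columns in the deposited files mark spots as well above background, saturated or irregular (non-uniform or a population outlier). The authors' series table holds the same intensity values, rounded (largest difference 0.497%), linear and not centred. Its column medians ran between 7.23 and 15.6.

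Levels are log2 values computed here from the deposited signals: the processed signal on the log2 scale, set against the 75th percentile over the array's 43750 probes, without its 1417 control features. The rule used all spots, while the limma fit left out the 63 irregular ones. The fit was limma 3.58.1 in R 4.3.3 (lmFit and eBayes, two-sided, with 6 residual and 4.49 prior degrees of freedom), with Benjamini-Hochberg adjustment at 0.05 over 25915 probes. p-values measure the spread between pools, and the number of arrays limits the precision. Steps, counts and figures were made with Python 3.11.15, pandas 2.3.3 and matplotlib 3.10.9.

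The members, lists and tests were chosen with earlier results of these data known. Named members were the 2 with the largest smaller step, the 2 with the largest first step, the 2 with the largest second step, the 2 brightest in control, those with the smallest and largest summed SD, and the probes at the limit of the rule. Others are said to be named after their values were seen. Normexp correction had been planned on the spots' mean signal, a column these files do not have, and was run on their median signal. Other alternatives were another scaling, blocks for slide, scan session and replicate number, other filters, and each array left out in turn. Gene lists were not used, since the files pair no probe with a gene.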

Additional observations from a re-analysis of the deposited data

How the results depend on the processing

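The rule found 132 probes. It found 20 after normexp and quantile normalisation, whose offset of 50 draws dim probes together, 297 within slide 1, 63 within slide 2, 411 with detection asked only in control, and 6 with both steps above 1. With spike-in scaling it found 96 and with median scaling 160. With 1 array left out it found 43 (16 mg array 2 left out) to 378 (16 mg array 3 left out). It found 56 without 5 mg array 1, 293 without the third of that group and 353 without the first 16 mg array. In these runs detection was asked only of the arrays kept, and 16752 to 18635 probes were eligible. Both steps of the 100 members were above 0 in 100 of them under spike-in and median scaling and in 98 after normexp, but both stayed above 0.5 in only 41 with spike-ins and 13 after normexp, against 100 with median scaling. The members' median second step was 0.45 with spike-ins, 0.65 with median scaling and 0.26 after normexp, and the first step after normexp was 0.32. The median of the eligible probes moved with the scaling, with a first step of -0.21 in the main scaling, 0.16 with spike-ins and -0.05 with median scaling, and the members' was 1.19 and 0.98 under these other scalings. The 6 members ordered without overlap (9 eligible probes) were 5 with spike-ins (21), 4 with median scaling (6) and 24 without 5 mg array 3 (254). The share of all tested probes called lower stands in brackets after each count of members called. At 5 mg against control these members numbered 4 in the main limma fit (5.55%), 22 with spike-in scaling (9.04%), 7 after normexp (3.71%), 2 with the replicate block (2.79%), 47 with slide as a block (20.7%), 0 with scan session as a block (0%), 0 in the fit of 2 groups (1.55%), 57 with array weights (21.3%), 8 over only the probes detected on all arrays (5.41%), 0 with no filter (0%), and 0 to 51 with 1 array left out. Leaving out 5 mg array 1 gave 51 (21.9%), and leaving out 5 mg array 2 gave 10 (12.3%). Leaving out 5 mg array 3, 16 mg array 1 or any 1 control array gave 0 (0% to 2.07%). At 16 mg against control the count of 0 became 96 in the fit of 2 groups (22.4%), 96 with array weights (22.2%) and 73 without 5 mg array 1 (9.74%), and was 0 to 73 over the arrays left out. At 16 mg against 5 mg it was 0 under every fit run. Whether replicate numbers pair the arrays cannot be told from 3 arrays per group. Deviations from group means correlated between -0.08 and 0.35 for the same number, and between -0.25 and 0.29 for others. The replicate block left the members called in the other comparisons at 0. Over all tested probes it took those called lower at 16 mg against 5 mg from 27 to 0. Of 240 recomputed steps of the 8 named members, 19 moved by over 1 SD (at 5 mg) and 10 turned round. The median second step turned within slide 2 (-0.15). Within slide 2 the second step of contig23173 was -0.050, that of GYUW2K401C6WU5 -0.85 and the first step of contig24581 -0.89. Within slide 1 the second step of contig24581 was -3.03 and the first step of GYUW2K401C6WU5 -0.53. With 1 array left out, the first step of contig24581 ran between -1.39 (without 5 mg array 2) and 1.62, and its second step between -0.52 (without 5 mg array 1) and 2.48. The first step of GYUW2K401C6WU5 ran between -0.12 (without 5 mg array 3) and 1.24, and its second step between -0.032 (without 5 mg array 2) and 1.33. Normexp on the median signal and leaving out irregular spots were chosen after seeing the data. For these changes the cause was not tested.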
